A study of Homo sapiens with 8 samples.

Results

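The features described here are all those that the authors' deposited table lists under METTL3, METTL14, WTAP, RBM15B, ALKBH5, YTHDF2 or RBMX, genes whose products write, erase or bind N6-methyladenosine (m6A) in RNA. They were found by an exact match of the gene name, which gave 10 features in 7 genes, of 4626 features under 3114 gene names in the whole table. The cells were wild-type HL-60, an established human promyelocytic leukaemia line, given decitabine, a deoxycytidine analogue that depletes DNA methyltransferases, or DMSO, its vehicle. Decitabine doses of 100 nM were given at the start, at 24 hours and at 48 hours, and RNA was taken at 72 hours. The 8 libraries form 4 groups of 2: m6A immunoprecipitate with decitabine, input with decitabine, m6A immunoprecipitate with DMSO and input with DMSO. The labels call the wells of each arm duplicates and do not say whether they came from separate cultures.

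m6A is placed on mRNA in the nucleus by a complex in which METTL3 is the catalytic subunit, METTL14 its RNA-binding partner and WTAP the adaptor that brings the pair to nuclear speckles. RBM15B and its paralogue RBM15 recruit that complex to particular transcripts, ALKBH5 removes the mark, and YTHDF2 binds it in the cytoplasm and brings the mRNA to deadenylation and decay. RBMX, also called hnRNP G, is a nuclear RNA-binding protein that can bind RNA regions whose structure m6A opens. Transcripts of these genes can carry the mark themselves, and the comparison asks where on them the m6A signal differed between decitabine and DMSO.

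Each feature has 1 ratio and 1 p-value for the whole comparison. Values of the separate libraries are not in the table, so no spread between duplicates can be attached to any of them and the depth is unknown. The ratio is a natural log. Its orientation is not stated; it is taken as likely decitabine over DMSO because the table carries the drug's name and DMSO served as vehicle, and the signs would turn if it were the reverse. Features are called positive or negative by its sign, and a fold is the larger arm over the smaller. No source used here gives the correction for input, so a change in m6A and a change in the amount of RNA cannot be told apart. The authors' deposited table starts at 1.65-fold and ends at p = 0.00455, so it holds features that had already passed a selection, and a gene that is not listed was not shown to be unchanged.

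Both signs occurred, with more positive features. Of the 10 features, 7 were positive and 3 negative in the authors' deposited table, in which 56.3% of all features were positive and 43.7% negative. Taking the feature with the smallest p-value for each gene, METTL3, METTL14, RBM15B, YTHDF2 and RBMX were positive and WTAP and ALKBH5 negative, so 5 of 7 genes were positive, beside 58.9% of all listed genes. The YTHDF2 call rests on its 59-fold feature and is negative without it. The shares of so few features and genes lie near those backgrounds and single out nothing about these genes. The median fold was 31.03 for the 10 features and 5.17 for all listed features in the authors' deposited table. Without the stepped ratios defined below, the medians were 2.23-fold and 3.42-fold, in that order. A fold of 10 or more was reached by 6 of the 10, beside 38.5% of the whole table, and a p of 0.001 or less by 7 of the 10, beside 52.6%. The sizes were uneven: 4 features lay between 1.68-fold and 2.75-fold, METTL3 at 10.06-fold, and 5 features between 52-fold and 291-fold.

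**Figure D1:**
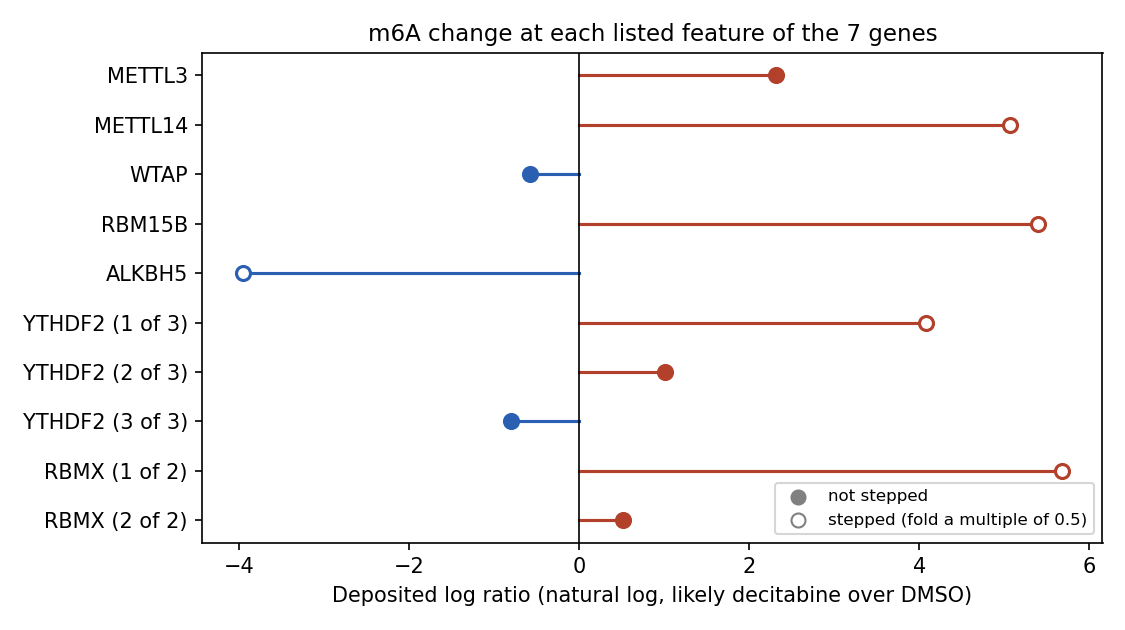
Natural log ratio of each of the 10 listed features (horizontal axis), one row per feature in transcript order within a gene, with no error because the table holds 1 value per feature. Open points are stepped ratios, whose fold is a multiple of 0.5; 7 features lie right of 0 and 3 left of it.

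Folds that come out at a multiple of 0.5 (relative tolerance 1e-08) are called stepped ratios. Such ratios were 5 of the 10 features (METTL14, RBM15B, ALKBH5, the first YTHDF2 feature and the first RBMX feature) and 30.6% of all features in the authors' deposited table. Every one of the 5 was at 52-fold or more, beside a median of 109.5-fold for all features with a stepped ratio. Of these 5, 4 were positive, beside 81.3% of all features with a stepped ratio, and of the other 5 features 3 were positive, beside 45.3% of all features without one. With stepped ratios left out, METTL3 and RBMX were positive and WTAP and YTHDF2 negative by their smallest-p feature, so 2 of 4 genes were positive, beside 45.3% of the 2300 genes that then stay in the table. The other 5 features ran between 1.68-fold and 10.06-fold, with a median of 2.23-fold, beside 3.42-fold for all features without a stepped ratio. Ratios of larger whole numbers can be recognised in some of these too. The METTL3 fold equals 181/18, the second RBMX fold 291/173 and the second YTHDF2 fold 548/199 to the same tolerance, whereas the WTAP feature and the negative YTHDF2 feature matched no fraction with a denominator up to 200. In all, 8 of the 10 features and 77.2% of the whole table matched such a fraction. The counts behind a ratio are not in the table and were not inferred from it.

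The catalytic pair METTL3 and METTL14 was positive on both transcripts, with very different sizes. The METTL3 feature (ENSG00000165819.12, hg38 chromosome 14, 21503251 to 21503300, minus strand) had a log ratio of 2.31, 10.06-fold, with p = 0.000666 in the authors' deposited table. It is the largest ratio among the 5 that were not stepped. It lay 8040 nt from the 5′ end of a gene span of 13203 nt and 5113 nt from the 3′ end. Among the 65 other positive features whose fold was within 1.2 times its own (features of like fold), the median p was 0.000403 and 38 had a smaller p, so METTL3 stood near the middle.

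The METTL14 feature (ENSG00000145388.15, chromosome 4, 118710493 to 118710542, plus strand) had a log ratio of 5.07, 159-fold, with p = 0.00132 in the authors' deposited table. Its p was large for such a ratio: of 222 other positive features of like fold, 179 had a smaller p, and the median of the 222 was 5.17e-06. The same fold and the same p stood beside 3 features elsewhere in the genome, in COX7A2L on chromosome 2, SCAF11 on chromosome 12 and the readthrough gene ZNF816-ZNF321P on chromosome 19 (genes named after their values were seen). Such a shared pair of values was found for 6.07% of all features and for 19.7% of the 1415 with a stepped ratio in the authors' deposited table, and METTL14 was the only one of the 10 features with one. The feature lay 25101 nt from the 5′ end of a span of 30039 nt, 4888 nt from the 3′ end.

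**Figure D2:**
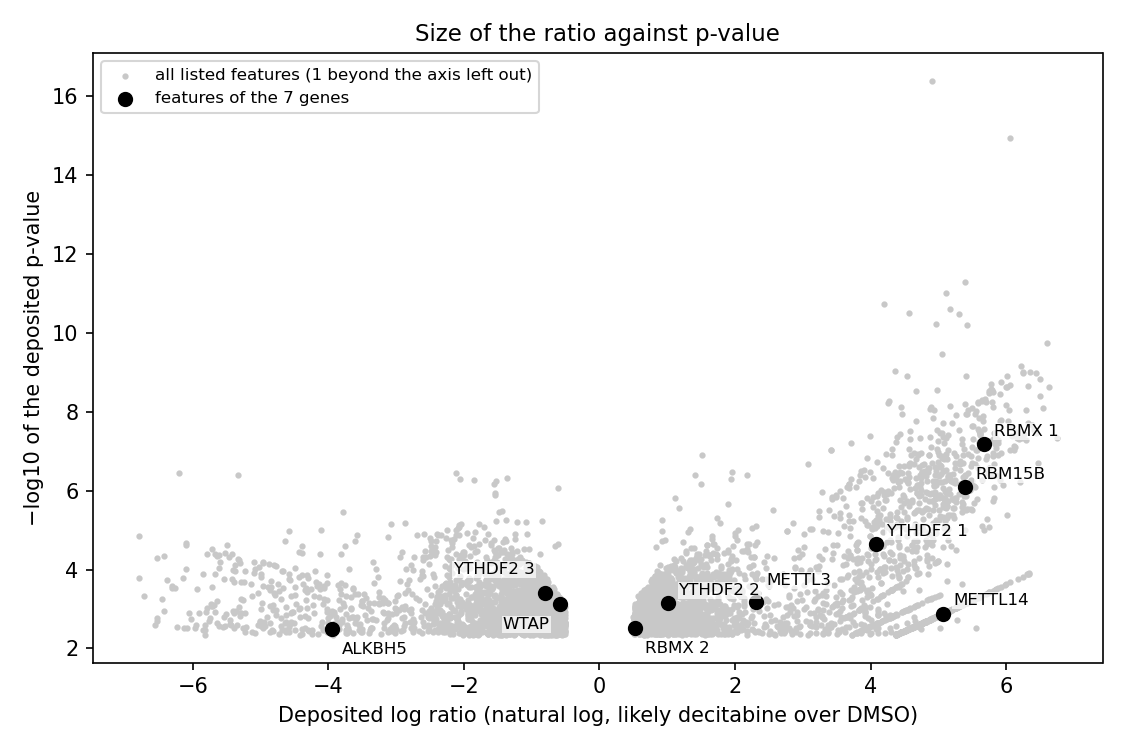
Natural log ratio (horizontal axis) against −log10 of the p-value (vertical axis) for all listed features (grey) and the 10 features of the 7 genes (black, numbered in transcript order where a gene has several). The METTL14 feature, at 159-fold and p = 0.00132 in the authors' deposited table, lies on a thin curve at the lower right, well under RBM15B at 220-fold and the first RBMX feature at 291-fold.

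The 2 features of the proteins that guide the catalytic pair had opposite signs. WTAP (ENSG00000146457.16, chromosome 6, 159748574 to 159748623, plus strand) had a log ratio of -0.58, 1.78-fold, with p = 0.000741 in the authors' deposited table. The fold is close to the smallest the table holds, at rank 1924 of the 2022 negative features, and 65 of 316 other negative features of like fold had a smaller p. The feature lay 21881 nt from the 5′ end and 7696 nt from the 3′ end of a span of 29627 nt. It also lay inside the RefSeq span of SOD2, the mitochondrial superoxide dismutase, which runs on the minus strand. No source used here says whether counting used strand, and without strand reads of WTAP and SOD2 cannot be told apart. SOD2 itself had 0 listed features.

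RBM15B (ENSG00000259956.2, chromosome 3, 51395219 to 51395268, plus strand) had a log ratio of 5.39, 220-fold, with p = 8.07e-07 in the authors' deposited table. It ranked 193 by size among the 2604 positive features and 318 by p-value among all 4626. Of 128 other positive features of like fold, 55 had a smaller p, so its p was usual for its ratio. The feature lay 3934 nt into the shortest of the 7 gene spans, 6624 nt, and 2640 nt from the 3′ end, the least distance to a 3′ end among the 10 features.

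The demethylase ALKBH5 carried the largest negative ratio of the 10 features. Its feature (ENSG00000091542.9, chromosome 17, 18184183 to 18184232, plus strand) had a log ratio of -3.95, 52-fold, with p = 0.00322 in the authors' deposited table. That p is the largest of the 10 and ranks 4023 of 4626 in the table. Of 46 other negative features of like fold, 38 had a smaller p, and the median of the 46 was 0.00122. It was also the feature closest to a 5′ end, 355 nt into a span of 26127 nt. None of the other 9 lay less than 1652 nt from the 5′ end of its gene.

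The reader YTHDF2 (ENSG00000198492.16, chromosome 1, plus strand) had 3 features, a number reached or passed by 10.9% of listed genes, and they changed in size and then in sign over a short stretch. The first (28742646 to 28742695) was positive, with a log ratio of 4.08, 59-fold, and p = 2.29e-05 in the authors' deposited table. The next (28742944 to 28742993) was also positive, with a log ratio of 1.01, 2.75-fold, and p = 0.000724 in the authors' deposited table. The last (28743143 to 28743192) was negative, with a log ratio of -0.80, 2.23-fold, and p = 0.000387 in the authors' deposited table.

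The first and second YTHDF2 features were separated by 248 nt, and the second and the last by 149 nt, so the sign turned between the closest pair, with a difference of 1.81 in log ratio. All 3 lay between 6022 and 6519 nt from the 5′ end of a span of 33152 nt and at least 26583 nt from the 3′ end. Opposite signs at this distance were common: of 448 neighbouring pairs within a gene with up to 250 nt between them, 205 (45.8%) had opposite signs, and of 1054 pairs farther apart 496 (47.1%) did. With stepped ratios left out, the negative feature, at a log ratio of -0.80, has the smallest p of the gene. It had a small p for its size, with 70 of 463 other negative features of like fold below it.

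RBMX (ENSG00000147274.14, chromosome X, minus strand) had 2 features, both positive and far apart in size. More than 1 feature was listed for 2 of the 7 genes, YTHDF2 and RBMX, beside 30.4% of all listed genes. The one nearer the 5′ end (136879024 to 136879073) had a log ratio of 5.67, 291-fold, with p = 6.57e-08 in the authors' deposited table, the largest fold and the smallest p of the 10 features. It ranked 107 by size among positive features and 130 by p-value in the whole table. The one nearer the 3′ end (136874446 to 136874495) had a log ratio of 0.52, 1.68-fold, with p = 0.00305 in the authors' deposited table. That fold ranks 2590 of 2604 positive features, and 156 of 198 other positive features of like fold had a smaller p.

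The 2 RBMX features were 4528 nt apart on the genome, 1652 nt and 6230 nt from the 5′ end of a span of 11534 nt. They differed by 5.15 in log ratio, beside a median difference of 2.56 over the 1054 neighbouring pairs more than 250 nt apart. The larger RBMX ratio is stepped and the smaller is not, and pairs of that kind were not looked at separately. RefSeq lists 8 genes or pseudogenes named as copies of RBMX, and no source used here says how reads shared between copies were counted. Of these, 2 were listed (looked up after the values were seen). In the authors' deposited table RBMXP4, a pseudogene on chromosome 4, had positive features at 109347262 to 109347311 (305-fold, p = 1.33e-07) and at 109347361 to 109347410 (70.5-fold, p = 3.55e-07). In the authors' deposited table RBMXL1 on chromosome 1 had a negative feature at 88983396 to 88983445 (3.01-fold, p = 0.00107). Whether the RBMX features lie in sequence shared with these copies was not checked, so which copy their values measure is uncertain. Pseudogenes named for WTAP (2) and YTHDF2 (1) had 0 listed features.

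All 10 features were written as 1 block, of 50 nt when both ends are counted. Most features of the table were written as 1 block too (95.8%). All 10 lay inside the RefSeq span of their gene, on the strand of that gene. No feature of another gene name lay within 1000 nt of any of them. Their positions were spread along the genes: 5 of 10 lay nearer to the 3′ end than to the 5′ end of the gene span, beside 74.6% of the 4240 listed features inside a matched span. The median position was 37.0% of the span from the 5′ end for the 10 features, beside 81.9% for all listed features in a matched span. The 3 YTHDF2 features share 1 stretch and weigh on that median, and a span includes introns, so a position along it is not a position along the mRNA. No annotation of exons, introns or UTRs was used.

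**Figure D3:**
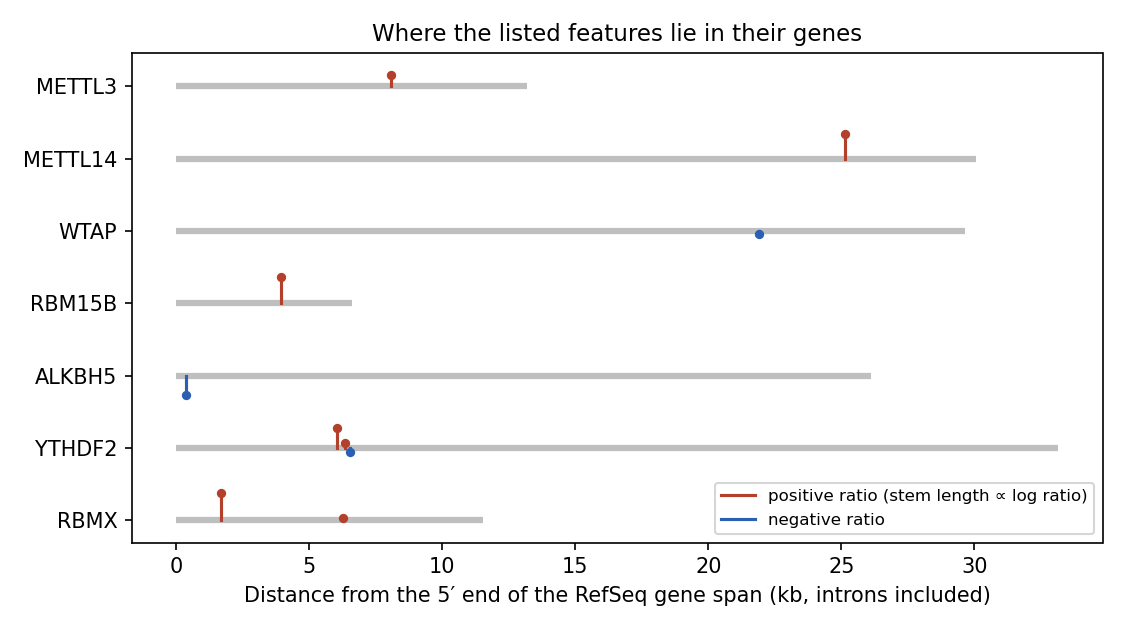
Position of the 10 features along their genes, in kb from the 5′ end of the RefSeq gene span (grey bar, introns included). Stems point up for positive and down for negative ratios with a length proportional to the log ratio; ALKBH5 has its feature at the very start of the gene, and YTHDF2 has 3 features close together, 6022 to 6519 nt from its 5′ end.

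Of a fixed list of 29 genes of the m6A machinery, which includes these 7, 13 were listed, 7 with a positive and 6 with a negative smallest-p feature, beside 58.9% positive among all listed genes. The 7 genes described above were all listed, so they make up 7 of the 13. Of the other 22 genes of the list 6 were listed, 2 with a positive and 4 with a negative smallest-p feature. What share of all genes the table lists was not worked out. These 6 genes had 10 features, 4 positive and 6 negative, beside 56.3% positive among all listed features. The median of these 10 was 2.83-fold, beside 5.17-fold for all listed features. Among the other subunits of the writer complex, the scaffold VIRMA had stepped ratios, both positive, of 41.5-fold with p = 0.00451 and of 29-fold with p = 0.00249 in the authors' deposited table. The first of these shared its fold and p with a feature of SEC24D, to within rounding. ZC3H13, which holds the complex in the nucleus, had negative features of 1.78-fold (p = 0.00156) and 2.82-fold (p = 0.00256) in the authors' deposited table. Among the 6 listed genes of the writer complex, METTL3, METTL14, RBM15B and VIRMA were positive by their smallest-p feature and WTAP and ZC3H13 negative, and its subunits RBM15 and CBLL1 were not listed. All features of METTL14, RBM15B and VIRMA are stepped ratios, and without these METTL3 was positive and WTAP and ZC3H13 were negative.

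Outside that complex, METTL16, which methylates U6 snRNA and the MAT2A mRNA, had a positive 3.38-fold feature (p = 0.00398) in the authors' deposited table. The nuclear reader YTHDC1 had a negative 1.86-fold feature (p = 0.00259) in the authors' deposited table. ELAVL1, which binds AU-rich elements, had a negative 2.83-fold feature (p = 0.000200), the smallest p of these 6 genes in the authors' deposited table. PRRC2A, reported to bind m6A, had features of both signs, negative at 1.74-fold (p = 0.000911) and 12.5-fold (p = 0.00356) and then positive at 1.85-fold (p = 0.00421) in the authors' deposited table. Between the larger negative PRRC2A feature and the positive one lay 448 nt. Opposite signs were found in 47.1% of all neighbouring pairs more than 250 nt apart, and both signs in 17.7% of all listed genes. The demethylase FTO, the readers YTHDF1, YTHDF3 and YTHDC2 and the IGF2BP proteins were among the 16 genes of the list that were not listed.

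**Figure D4:**
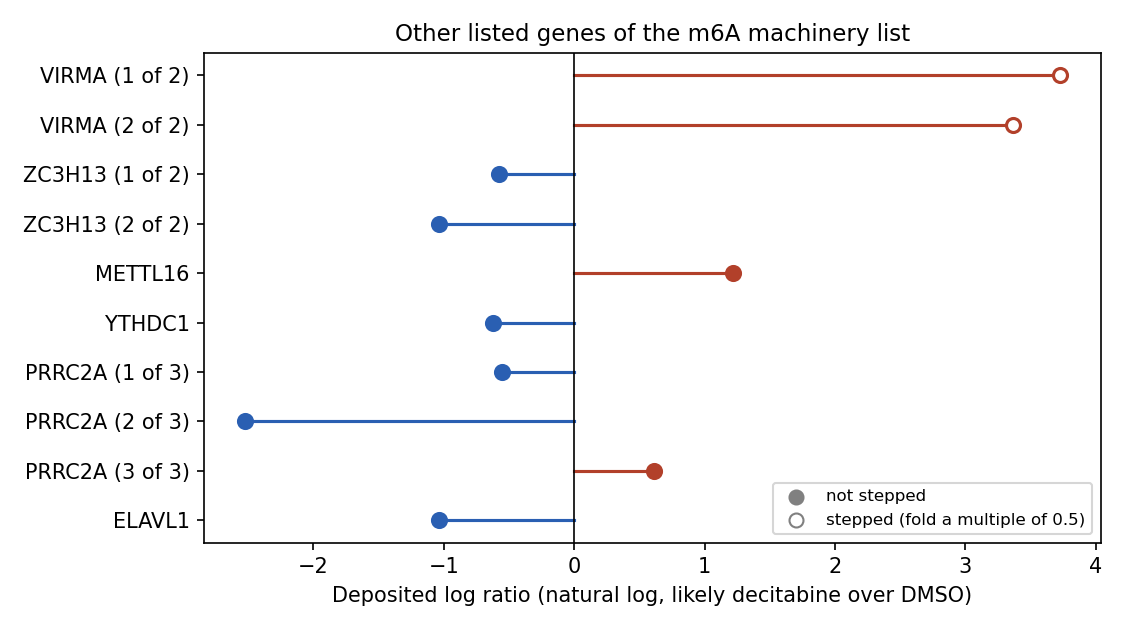
Natural log ratio of the 10 features of the 6 other listed genes of the m6A machinery list, one row per feature in transcript order, with no error because the table holds 1 value per feature. Only the VIRMA ratios are stepped; 4 features lie right of 0 and 6 left of it.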

How the data were processed

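The labels' protocols state that 2 µg of fragmented RNA per sample was incubated with 5 µg of an antibody against m6A, and that sequencing gave single-end reads of 50 bases. Aligner STAR 2.7.3a and build hg38 come from the submitters' processing notes. No source used here names the feature caller, its correction for input and library size, or how duplicates were combined. All values come from 1 table, the authors' deposited comparison. Its log ratio was read as a natural log: the exponential was a stepped ratio for 1415 features, against 0 with base 2. Whether the authors adjusted the p-value they deposited is not stated. Start and end were read as 1-based and inclusive, a convention that no source used here states.

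The 7 genes, the machinery list and the alternatives were chosen with earlier results of these data known. Named are all features of these 7 genes, every other listed gene of the list, and genes listed within 1000 nt (there were 0). Gene spans came from RefSeq GRCh38.p14, in which all 7 symbols matched. No genome sequence was used, so no sequence is shown and no motif was searched. A planned fit across libraries was not run, because values per library were not used here, and no statistical test of the comparison was made. The code that finds stepped ratios was run on simulated ratios built with a natural log and the same rule. That run checks the code only and cannot show which base the deposited ratio has. Python 3.11.15, pandas 2.3.3, numpy 2.4.6 and matplotlib 3.10.9 were used.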

Additional observations from a re-analysis of the deposited data

How the results depend on the processing

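The count of 7 positive features stayed at 7 with assignment by Ensembl identifier or by gene span and strand, or merging within 100 nt. Those settings had little room to change it. The closest pair of features had 149 nt between them, so merging joined none. All 10 features already lay inside the span of their gene, on its strand. At p of 0.001 or less 5 features were positive and 2 negative, beside 1472 positive of the 2431 listed features at that cutoff. Of all features with a stepped ratio 81.3% were positive, and of those without one 45.3%. With stepped ratios left out the count of positive features was 3, beside 2 negative features. That setting left 2 positive and 2 negative genes of the 7, and 3 positive and 6 negative genes of the machinery list, and it reversed the smallest-p feature of YTHDF2, whose log ratio became -0.80. By the largest ratio per gene the counts of positive genes stayed at 5 and 7. At p of 0.001 or less 4 of the member genes were positive and 1 negative, and METTL14 and ALKBH5 had no feature left. The share of all listed genes at that cutoff was not worked out, so nothing is read from these gene counts. The median fold of 31.03 became 2.23 without stepped ratios, beside 3.42 for all listed features without them. It became 10.06 at p of 0.001 or less and 10.2 if the log had base 2, which lowers every fold and changes no sign. No paired analysis was possible because the table holds no value per library, and for the same reason no duplicate could be left out. The depth behind the ratios is unknown.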
